A study of Mus musculus with 8 samples.

Results

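The IkB family inhibitors of NF-kB were followed in chromatin-associated RNA of primary mouse embryonic fibroblasts, cells grown directly from C57BL/6 embryos. The members were 6 genes, taken by symbol from a table of 45706 gene rows: Nfkbia, Nfkbib and Nfkbie, which encode the classical inhibitors IkBα, IkBβ and IkBε, and Nfkbid, Nfkbiz and Bcl3, which encode the atypical, nuclear proteins IkBNS, IkBζ and Bcl-3. All 6 were among the 15049 genes with enough counts to test. Cells of genotype crel-/-rela-/- (KO), which lack the NF-kB subunits cRel and RelA, were set against wild-type cells (WT). Both genotypes were held overnight in low-serum medium and then treated with the cytokine TNF (tumour necrosis factor, 10 ng/ml), and a library was made from each at 0, 15, 45 and 60 min. There was 1 library per genotype and time, 8 in all, and nothing in the labels says that they came from separate cultures or embryos. No library was taken from cells left without TNF for 15, 45 or 60 min, so the effect of TNF cannot be told apart from that of time in culture. Fewer cells with a transcript and less transcript per cell cannot be told apart in such bulk RNA.

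NF-kB is a family of paired subunits that binds DNA at κB sites. Classical IkB proteins hold the pairs inactive in the cytoplasm until the IKK kinases, activated by cytokines such as TNF, mark them for destruction. The genes for several of these inhibitors are themselves known targets of NF-kB, which makes a negative feedback loop. The atypical members act inside the nucleus on p50 and p52 pairs, which have no activation domain of their own. They can raise or lower transcription of the genes to which those pairs are bound.

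Library totals ran from 12359817 to 15607331 counts, of which 58.9% to 70.6% fell on the gene models Gm26917, Gm42418 and Malat1. Levels between libraries are therefore given as CPM, counts relative to a library size scaled by the trimmed mean of M-values. Summed markers of fibroblasts ran from 9950 to 13400 CPM in KO and from 9440 to 12100 CPM in WT. Summed macrophage markers were at 6.27 to 8.38 CPM in KO and 63.2 to 90.1 CPM in WT. All 10 of 10 reached 10 counts in some library, but in KO only Cd68 and Csf1r did. Adgre1, which defines mouse macrophages, had 0, 0, 0 and 2 counts in the KO libraries and 132, 112, 72 and 88 counts in the WT libraries. Cd68 was much closer between the genotypes, with 93, 77, 67 and 78 counts in KO and 131, 119, 88 and 75 in WT, and it made up most of the KO sum. Of 8 lymphocyte markers 5 were at 0 in every library (Cd3e, Cd3g, Cd8a, Ms4a1 and Cd2), and their sum was at most 0.265 CPM. The KO library at 0 min stood apart: its 6 cartilage markers summed to 436 CPM, against 35.3 to 65.1 CPM in the other KO libraries and 21 to 24.3 CPM in WT, and its 6 epithelial markers to 13.3 CPM, against 2.47 to 4.29 CPM in the other KO libraries and 0.722 to 1.22 CPM in WT. Endothelial markers summed to 8.97 to 14.7 CPM in KO and 3.68 to 5.3 CPM in WT. Most of these sums came from Kdr and Tek, and only 3 of the 6 markers reached 10 counts in any library. Pecam1 had 8, 1, 4 and 1 counts in KO and 0, 1, 8 and 6 in WT. Rela had 306, 241, 291 and 324 counts in KO and 324, 406, 704 and 589 counts in WT, and Rel 478, 308, 538 and 633 in KO and 151, 173, 805 and 506 in WT. Which stretch of either allele was deleted is not stated, and whole-gene counts therefore do not check the knockout.

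Promoter windows show where the κB consensus, the decamer that NF-kB prefers, lies at these genes. RefSeq windows on GRCm38.p6, the assembly also called mm10, run from 250 bases before to 50 bases after a transcript start, and 5 of the 6 members matched, with 7 windows in all. The consensus, searched on both strands, was found in 4 of the 7 windows and at 4 of those 5 genes. Across all 32851 windows of that length, 8.46% held it. One window for each matched member is printed on the strand of the gene, from 250 bases before to 20 bases after the start, with the consensus in capitals.
Nfkbia, chr12:55492628-55492897, minus strand: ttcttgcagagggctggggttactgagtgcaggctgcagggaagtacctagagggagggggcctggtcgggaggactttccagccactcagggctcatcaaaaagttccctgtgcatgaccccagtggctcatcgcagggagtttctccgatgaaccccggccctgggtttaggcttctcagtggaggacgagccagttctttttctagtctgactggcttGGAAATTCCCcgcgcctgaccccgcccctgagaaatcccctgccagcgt
Nfkbie, chr17:45555450-45555719, plus strand: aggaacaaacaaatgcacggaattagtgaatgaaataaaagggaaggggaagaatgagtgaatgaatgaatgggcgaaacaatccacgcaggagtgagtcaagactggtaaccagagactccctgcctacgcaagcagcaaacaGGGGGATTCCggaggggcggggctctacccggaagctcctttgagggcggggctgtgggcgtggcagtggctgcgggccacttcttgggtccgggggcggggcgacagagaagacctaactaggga
Nfkbib, chr7:28766625-28766894, minus strand: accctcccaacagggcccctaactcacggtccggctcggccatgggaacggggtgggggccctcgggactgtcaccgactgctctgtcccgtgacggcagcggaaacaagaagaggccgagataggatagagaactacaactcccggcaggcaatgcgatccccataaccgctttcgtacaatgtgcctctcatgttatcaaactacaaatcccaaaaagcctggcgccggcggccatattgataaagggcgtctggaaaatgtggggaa
Nfkbid, the second of 3 windows, chr7:30422156-30422425, plus strand: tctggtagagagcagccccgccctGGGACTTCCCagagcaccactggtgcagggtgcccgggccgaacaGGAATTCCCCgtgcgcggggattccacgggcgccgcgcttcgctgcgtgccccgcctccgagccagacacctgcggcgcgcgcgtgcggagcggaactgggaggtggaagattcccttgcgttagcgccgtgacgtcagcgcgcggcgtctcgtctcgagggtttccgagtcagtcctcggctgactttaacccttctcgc
Bcl3, chr7:19822736-19823005, minus strand: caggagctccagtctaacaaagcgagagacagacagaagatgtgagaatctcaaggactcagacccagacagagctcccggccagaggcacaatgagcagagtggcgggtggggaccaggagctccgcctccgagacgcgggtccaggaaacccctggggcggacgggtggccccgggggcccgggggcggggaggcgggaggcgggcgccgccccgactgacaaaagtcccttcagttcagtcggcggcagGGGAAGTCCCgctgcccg
The Nfkbia match began 29 bases before the start and read GGGAATTTCC on the opposite strand. The Nfkbie match began 106 bases before it and read GGGGGATTCC. Nfkbid held a match 226 bases before the start, GGGACTTCCC, which also fits on the other strand, and another 181 bases before it, GGGGAATTCC on the opposite strand. In Bcl3 the match GGGAAGTCCC covered bases 3 to 12 of the transcript, counting the start as 1, and likewise fits on both strands. The Nfkbib window held no match, nor did the other windows of Nfkbid, which says only that these letters are not in them. The transcript start of the Nfkbib window, at 28766644, lies inside the counted gene, which runs to 28767512. Sequence at the upstream end of that gene was therefore not searched. A match is a description of the sequence, and binding was not measured here.

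No gene of the family was called changed late after TNF in KO cells, and all 6 were called higher in WT cells. The late response was tested as the mean of 45 and 60 min against 0 min with edgeR's quasi-likelihood test. In KO, 0 of 6 members passed an adjusted p of 0.05 in either direction, where 1.32% of all tested genes were called higher and 0.518% lower. Nfkbiz alone had an unadjusted p under 0.05 there, and DESeq2 and limma-voom also called 0 of 6. The fitted log2 changes of the members in KO ran from -0.57 to 0.14. In WT, 6 of 6 rose, where 4.17% of all genes did, with log2 changes of 0.88 to 4.50. DESeq2 called 5 of 6 in WT, without Nfkbib (2.52% of all genes higher), and limma-voom 6 (3.87%). With scaling by total counts (2.02%) or with no filter on low counts (0.968%), edgeR called 4, without Nfkbib and Nfkbiz. The difference between these responses, KO minus WT, was lower for 5 of 6 members, where 0.492% of all genes were called lower. The late level itself was lower in KO for 6 of 6, where 7.88% of all genes were. The median log2 value over the members was -0.25 for the KO response, 3.54 for the WT response, -3.65 for their difference and -3.50 for the late level, while the medians over all tested genes were -0.00541, -0.00386, -0.00129 and 0.0118.

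**Figure D1:**
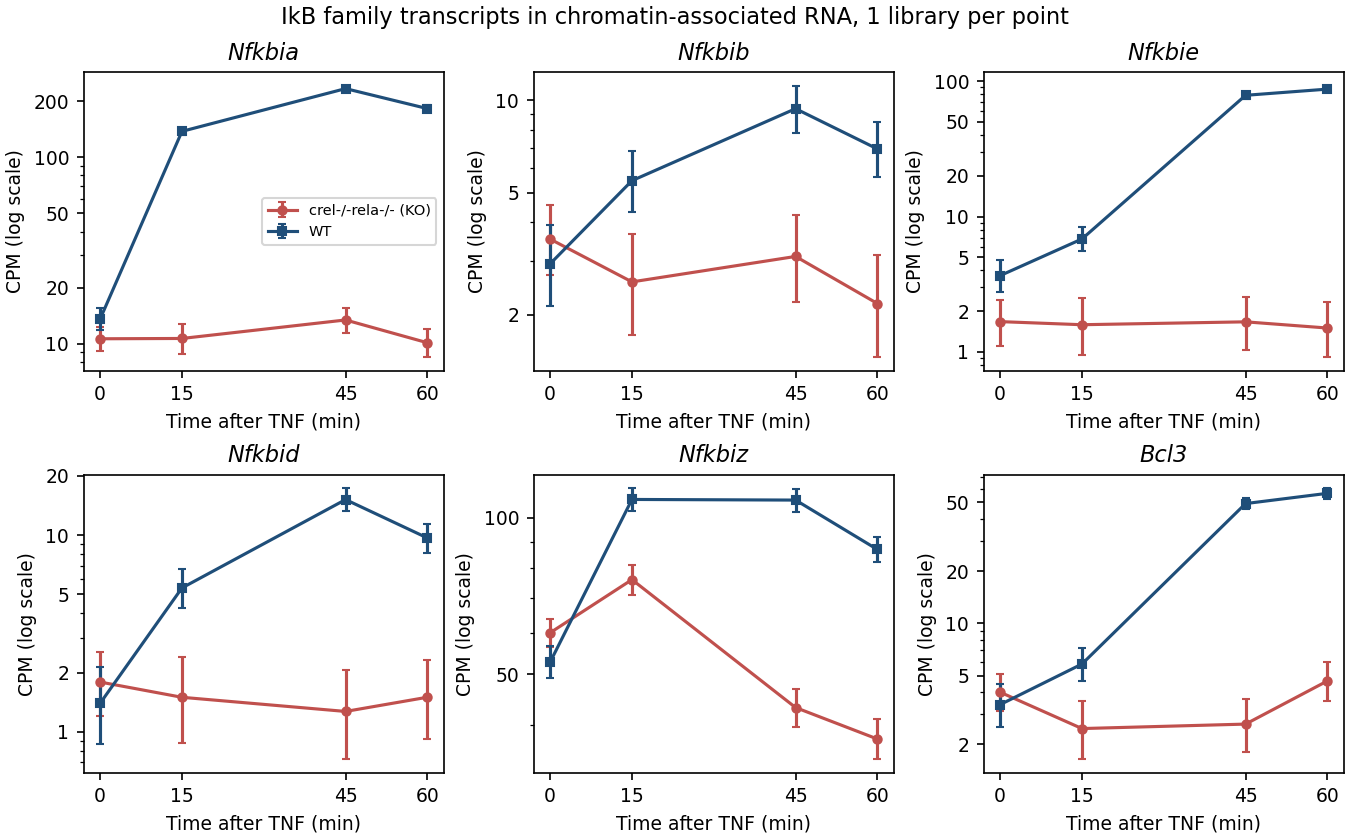
Level of each IkB family gene in CPM (log axis, its range set per panel) against minutes after TNF; circles are KO and squares WT, 1 library per point, and bars are exact 95% intervals for counting error. The WT lines climb after 0 min in each panel while every KO point after TNF lies under the WT points after TNF, and the KO and WT points at 0 min lie close for all but Nfkbie.

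The libraries at 45 and 60 min serve as replicates in these tests without being the same time, and each lone library is taken to vary like the late pairs. On simulated counts the late KO test recovered 10.6% of 1.5-fold and 48.5% of 2-fold changes, with 27 false calls. Changes of that size can therefore go uncalled, and calls near the threshold are uncertain. When 15 min replaced 0 min as the baseline in KO, whose 0 min library stood apart, 1 member was called in KO: Nfkbiz, which was lower (-0.91, edgeR adjusted p = 0.0429). In that setting 0.346% of all genes were called lower.

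Nfkbia, whose product IkBα is the fastest of the feedback inhibitors, lies on chromosome 12 (55489411 to 55492647, minus strand, mm10), with 6 merged exons in the deposited table, and GENCODE lists it, like the other members, as protein-coding. It had 10.6, 10.7, 13.4 and 10.1 CPM in KO at 0, 15, 45 and 60 min, from 178, 121, 169 and 135 counts. In WT it had 13.6, 138, 234 and 182.5 CPM, from 204, 1916, 3264 and 2527 counts. All KO values lay under all WT values, although the WT value at 0 min and the highest KO value were closer than counting error (ratio 1.01, 95% interval 0.822 to 1.25). Its late response was 0.14 ± 0.24 (log2 ± SE, edgeR adjusted p = 0.799) in KO and 3.94 ± 0.25 (adjusted p = 2.63e-06) in WT. Their difference of -3.79 ± 0.33 passed the test (edgeR adjusted p = 0.000149). Most of the WT rise was early: at 15 min the WT level had covered 56.4% of the way to its highest value, at 45 min. It was lower again at 60 min, at 0.781 of the 45 min level (95% interval 0.741 to 0.823). With 15 min as baseline the WT response was 0.59 and was not called. The difference was not called with 15 min as baseline in both genotypes (-0.46), nor where 15 min was put together with 0 min (-1.32). It was -3.66 where 15 min was put together with the late times, also not called (edgeR adjusted p = 0.107). In that setting the difference was called for 0 of all 15049 genes.

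Nfkbie encodes IkBε, a feedback inhibitor known to appear later than IkBα. The gene lies on chromosome 17 (45555716 to 45563169, plus strand), with 6 merged exons. It had 1.67, 1.59, 1.67 and 1.5 CPM in KO at 0, 15, 45 and 60 min, and 3.66, 6.83, 78.7 and 87.5 CPM in WT. The KO values rest on 28, 18, 21 and 20 counts, and the WT values on 55, 95, 1100 and 1211 counts. The KO libraries were lower than every WT library, also before TNF, and the 4 KO values were within counting error of each other. The late response was -0.08 ± 0.33 in KO (edgeR adjusted p = 0.931) and 4.50 ± 0.24 in WT (adjusted p = 1.49e-06), and the difference was -4.58 ± 0.43 (adjusted p = 0.000187). The WT course differed from that of Nfkbia in its timing. At 15 min only 3.78% of the rise had been covered, and the 45 min level was 11.5 times that at 15 min (95% interval 9.34 to 14.4). The level at 60 min was the highest, at 1.11 times that at 45 min (95% interval 1.02 to 1.21). Nfkbie had the widest gap between genotypes of the 6 genes: its late level in KO was -5.71 ± 0.20 relative to WT (edgeR adjusted p = 1.16e-08).

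Nfkbib encodes IkBβ, a classical inhibitor that is not usually counted among the fast feedback genes. It lies on chromosome 7 (28758251 to 28767512, minus strand), with 8 merged exons. It had 3.53, 2.56, 3.10 and 2.18 CPM in KO at 0, 15, 45 and 60 min, and 2.93, 5.47, 9.38 and 6.93 CPM in WT. The KO counts were 59, 29, 39 and 29, and the WT counts 44, 76, 131 and 96. Before TNF the KO library was the higher one, within counting error, and after TNF every KO value lay under every WT value. Late changes were -0.42 ± 0.34 in KO (edgeR adjusted p = 0.559) and 1.47 ± 0.33 in WT (adjusted p = 0.0217). The difference of -1.90 ± 0.48 did not pass (edgeR adjusted p = 0.151), and it was called only without the WT library at 60 min (-2.10, adjusted p = 0.0135). The WT call was lost under 6 of 18 alternatives. Among them were DESeq2 (adjusted p = 0.177), no filter on low counts (edgeR adjusted p = 0.104), scaling by total counts (1.26, adjusted p = 0.0562) and leaving out the WT library at 45 min (1.22, adjusted p = 0.0536). With 15 min as baseline the WT response was 0.58 (edgeR adjusted p = 0.355). Sirt2 on the opposite strand overlaps Nfkbib by 778 bases, and reads of both genes cannot be told apart if strand was not used in counting. Sirt2 had 20.7 to 28.3 CPM in KO and 23.4 to 28.1 CPM in WT.

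Nfkbid encodes IkBNS, an atypical member that acts with p50 in the nucleus. Its gene on chromosome 7 (30421732 to 30428746, plus strand) has 12 merged exons. It had 1.79, 1.5, 1.27 and 1.5 CPM in KO at 0, 15, 45 and 60 min, and 1.40, 5.39, 15.2 and 9.68 CPM in WT. These rest on 30, 17, 16 and 20 counts in KO and 21, 75, 212 and 134 counts in WT. Of the 4 KO values 3 lay above the WT value at 0 min, within counting error, and all lay under the WT values after TNF. Late changes were -0.37 ± 0.44 in KO (edgeR adjusted p = 0.712) and 3.14 ± 0.39 in WT (adjusted p = 0.000512). The difference of -3.51 ± 0.60 passed (edgeR adjusted p = 0.0249). That call was lost under 7 of 18 alternatives, among them limma-voom (adjusted p = 0.0736), leaving out the KO library at 45 min (-3.40, edgeR adjusted p = 0.0638) and taking 15 min as the KO baseline (-3.25, edgeR adjusted p = 0.056). In WT it peaked at 45 min, and the 60 min level was 0.638 of that (95% interval 0.510 to 0.796).

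Nfkbiz encodes IkBζ, a nuclear member known as an inducible coactivator of a second wave of inflammatory genes in macrophages. It lies on chromosome 16 (55811375 to 55838899, minus strand), with 15 merged exons. It had 60.1, 76.1, 43.2 and 37.6 CPM in KO at 0, 15, 45 and 60 min, and 52.8, 108, 108 and 86.9 CPM in WT. The counts were 1006, 862, 544 and 501 in KO and 793, 1507, 1510 and 1203 in WT. The highest KO value, at 15 min, lay under the WT values after TNF, while the KO value at 0 min lay above that of WT. This gene had the smallest late WT response of the family. Its KO level at 15 min was 1.27 times that at 0 min (95% interval 1.15 to 1.39), while scaling by total counts put that ratio at -0.01 on the log2 scale. At 60 min it was 0.494 of the 15 min level (95% interval 0.442 to 0.552). The late response was -0.57 ± 0.18 in KO (edgeR unadjusted p = 0.00857, adjusted p = 0.13) and 0.88 ± 0.19 in WT (adjusted p = 0.0177). Their difference was -1.46 ± 0.26 (edgeR adjusted p = 0.0312). In WT the level at 15 min was already the highest, within counting error of that at 45 min, and with 15 min as baseline the sign of the WT response turned (-0.15, not called). The WT call was lost under 5 more of 18 alternatives, among them scaling by total counts (0.67, edgeR adjusted p = 0.295), no filter on low counts (adjusted p = 0.101), 0 and 15 min together as baseline (0.28, adjusted p = 0.535) and leaving out the WT library at 45 min (0.70, adjusted p = 0.066). The call of the difference was lost under 6 of 18, among them scaling by total counts (-1.45, edgeR adjusted p = 0.132), no filter (adjusted p = 0.294), 15 min as baseline (-0.76) and leaving out the KO library at 60 min (-1.36, adjusted p = 0.0565).

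Bcl3 encodes Bcl-3, which binds p50 and p52 pairs in the nucleus and can activate or repress through them. Its gene lies on chromosome 7 (19808462 to 19822770, minus strand), with 11 merged exons. It had 4.01, 2.47, 2.62 and 4.65 CPM in KO at 0, 15, 45 and 60 min, and 3.40, 5.83, 49.2 and 56.3 CPM in WT. The counts were 67, 28, 33 and 62 in KO and 51, 81, 687 and 780 in WT. The KO values lay on both sides of the WT value at 0 min and under all WT values after TNF. Its late response was -0.13 ± 0.32 in KO (edgeR adjusted p = 0.868) and 3.95 ± 0.31 in WT (adjusted p = 1.42e-05). The difference was -4.09 ± 0.44 (edgeR adjusted p = 0.000646). That call was lost under 3 of 18 alternatives, among them no filter on low counts (edgeR adjusted p = 0.0509). Another was 15 min as baseline in both genotypes (-2.61, edgeR adjusted p = 0.0804). The KO libraries at 45 and 60 min stood 1.77 times apart (60 over 45 min, 95% interval 1.15 to 2.80), and without the 45 min library the KO response was 0.22, also not called. Like Nfkbie, Bcl3 moved late in WT: 4.59% of its rise had been covered at 15 min, and the level at 60 min was the highest. Gm16174, which overlaps Bcl3 on the opposite strand, had 9, 6, 4 and 4 counts in KO and 5, 5, 3 and 3 counts in WT.

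**Figure D2:**
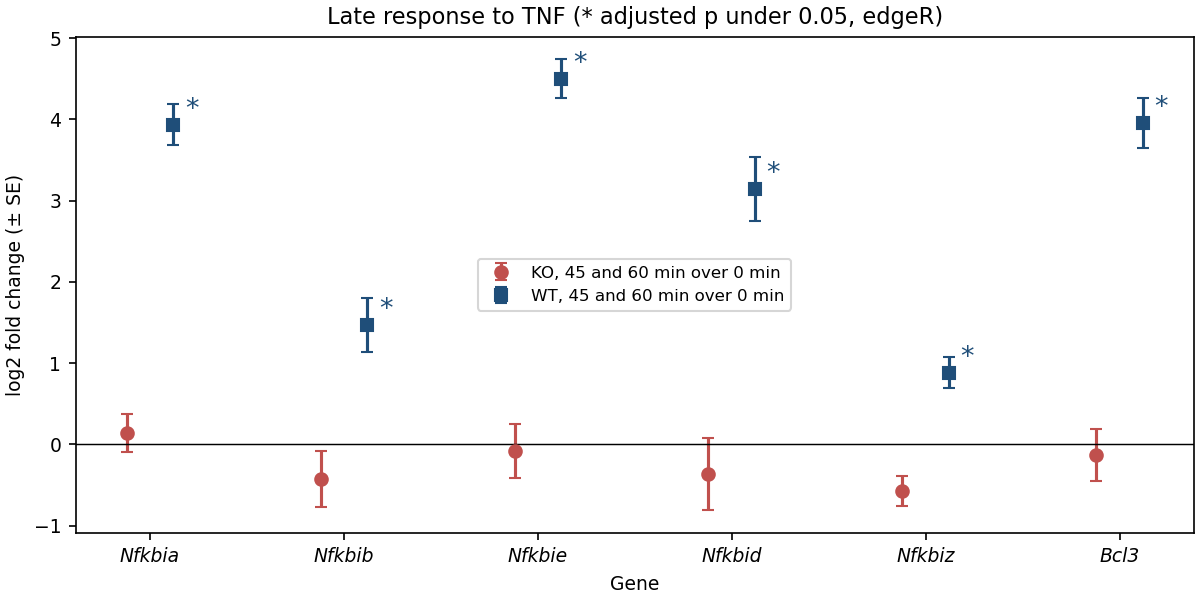
Late response of each gene, as the edgeR log2 fold change of 45 and 60 min over 0 min; circles are KO, squares WT, bars are the SE, and a star marks an adjusted p under 0.05. The KO points lie between -0.57 and 0.14 with no star, and the WT points between 0.88 and 4.50, each with a star.

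Single libraries show when the genotypes parted. A member was counted where the scaled counts of the libraries differed at least 2-fold, the exact 95% interval left out 1 and there were 20 or more counts in the higher of them. Such ratios compare libraries and not conditions. Against its own 0 min library, KO had 0 of 6 members past this rule at 15 min, where 0.585% of all genes were higher and 1.15% lower. It also had 0 of 6 at 45 min, where 2.58% were higher and 2.78% lower, and 0 of 6 at 60 min, where 3.02% were higher and 3.22% lower. At 60 against 15 min in KO 1 of 6, Nfkbiz, was lower, where 2.64% of all genes were. That log2 ratio was -1.02, and -0.70 with scaling by total counts, which does not pass. Scaling by total counts also put Bcl3 in KO just past 2-fold lower at 15 and 45 min against 0 min (log2 -1.04 at 15 min), and higher at 60 against 15 min (1.23). WT had 3 of 6 higher at 15 min, where 0.857% of all genes were: Nfkbia, Nfkbid and Nfkbiz. At 45 min 6 of 6 were higher in WT, where 4.13% of all genes were. Nfkbiz was close to the threshold, at a log2 ratio of 1.04 at 15 min and 1.03 at 45 min, and did not reach it with scaling by total counts (0.70 and 0.77) or by total counts without the 3 gene models (0.98 and 0.91), which leaves 2 of 6 at 15 min and 5 of 6 at 45 min. At 60 min 5 of 6 were, where 5.01% of all genes were, and Nfkbiz was then at 1.65 times its 0 min level (95% interval 1.5 to 1.80). Between 15 and 45 min in WT 3 of 6 rose by this rule, where 3.87% of all genes did: Nfkbie, Nfkbid and Bcl3. Between 45 and 60 min the WT levels of Nfkbia, Nfkbib, Nfkbid and Nfkbiz were lower and those of Nfkbie and Bcl3 higher, each beyond counting error.

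Before TNF the genotypes were close for most members. At 0 min 0 of 6 were at least 2-fold higher in KO, where 1.91% of all genes were, and 1 of 6 was lower, where 3.37% of all genes were. That member was Nfkbie, at 0.457 of the WT level (95% interval 0.279 to 0.733). Nfkbia was at 0.783 (95% interval 0.637 to 0.962) and Nfkbiz at 1.14 (95% interval 1.04 to 1.25). The intervals of Nfkbib (0.801 to 1.82), Nfkbid (0.710 to 2.36) and Bcl3 (0.807 to 1.73) held 1, and they also leave room for differences of up to about that size. At 15 min 5 of 6 were lower in KO, where 3.44% of all genes were, and Nfkbiz was at 0.702 of the WT level (95% interval 0.645 to 0.764). At 45 min 6 of 6 were lower, where 5.58% of all genes were, and at 60 min 6 of 6, where 5.7% were. The KO level at 60 min was 0.0172 of the WT level for Nfkbie (95% interval 0.0104 to 0.0266) and 0.433 for Nfkbiz (95% interval 0.389 to 0.481), the extremes of the family. In the edgeR fit of both late times the KO level relative to WT was -4.14 ± 0.19 for Nfkbia, -1.63 ± 0.27 for Nfkbib and -3.15 ± 0.31 for Nfkbid (log2 ± SE). It was -1.27 ± 0.15 for Nfkbiz and -3.85 ± 0.23 for Bcl3, and the adjusted p for Nfkbib, the highest of the 6, was 0.00159.

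**Figure D3:**
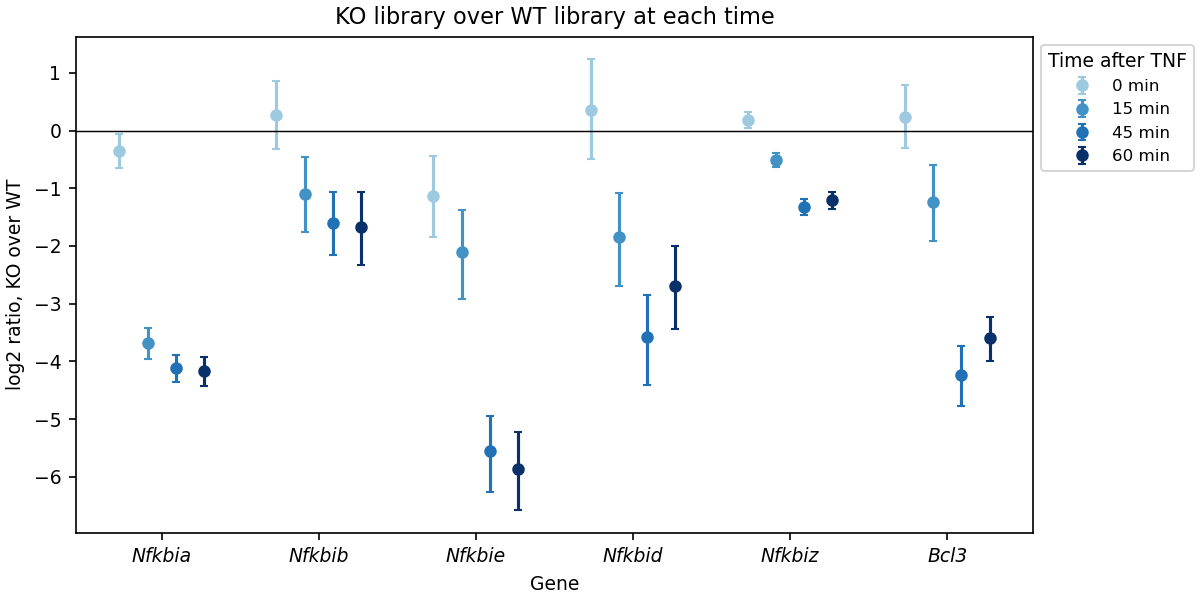
Ratio of the KO to the WT library at each time (log2 axis, scaled counts), with exact 95% intervals for counting error; darker points are later times. At 0 min only Nfkbie lies more than 2-fold under the line of equal levels, and at 45 and 60 min all genes do, from 0.433 for Nfkbiz to 0.0172 for Nfkbie.

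Averaged over all 4 times, with time as a block, 6 of 6 members were lower in KO (edgeR adjusted p from 0.00137 to 0.0417), where 9.44% of all genes were called lower. The log2 differences ran from -4.24 ± 0.63 for Nfkbie to -0.71 ± 0.21 for Nfkbiz. This comparison mixes the level before TNF with the response. It gave 3 members with DESeq2, where 6.39% of all genes were called lower. Robust empirical Bayes in edgeR gave 0 (4 at an unadjusted p under 0.05), where 9.07% of all genes were called lower. The comparison gave 2 to 6 when 1 library was left out. It gave 2 without the WT or the KO library at 45 min (4.92% and 4.97% of all genes). It gave 3 without the WT or the KO library at 60 min (7% and 6.86%). Macrophage markers moved with genotype as well, at 6.27 to 8.38 CPM in KO and 63.2 to 90.1 CPM in WT, and their part in the genotype differences was not tested. At 0 min, where those sums were 7.89 CPM in KO and 90.1 CPM in WT, the members' KO levels were 0.457 to 1.28 of WT. Within WT the macrophage sum was 90.1, 82.1, 75.4 and 63.2 CPM at 0, 15, 45 and 60 min. Marker sums do not show which cells made the members' transcripts. Genotype and macrophage signal differ together in these libraries and cannot be told apart.

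The balance within the family was compared per exon length, as TPM, counts divided by exon length and then by their total, within each library. In KO, Nfkbiz had the highest TPM of the 6 genes at every time, with 51.2%, 59.7%, 41.3% and 41.5% of the summed TPM of the family at 0, 15, 45 and 60 min. In WT it led at 0 min, with 43.9%, and then had 18.2%, 9.25% and 8.69%. Nfkbia took its place in WT after TNF. The share of Nfkbia was 28.8%, 26.7%, 40.9% and 35.6% in KO and 35.9%, 73.4%, 63.6% and 58.1% in WT. Nfkbie had 2.95%, 2.58%, 3.31% and 3.43% in KO and 6.31%, 2.37%, 14.0% and 18.1% in WT, and Bcl3 had 10.4% in KO and 11.4% in WT at 60 min. At 45 min in KO, Nfkbia and Nfkbiz were close, at 40.9% and 41.3%. Exon counts in chromatin-associated RNA also hold reads of unspliced transcripts, so these shares are of exonic signal and not of mature messenger RNA.

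**Figure D4:**
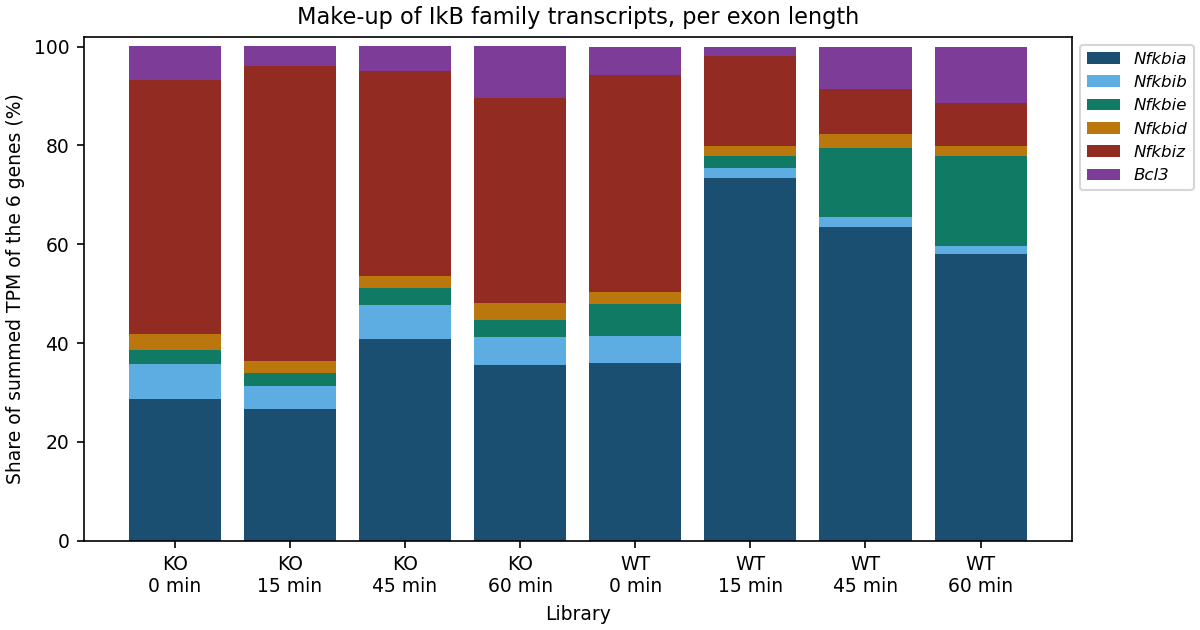
Share of each gene in the summed TPM of the 6 genes (percent, stacked to 100), with the 4 KO libraries on the left and the 4 WT libraries on the right. Nfkbiz is the widest band in the KO libraries and in WT at 0 min, and Nfkbia in WT at 15, 45 and 60 min, at 73.4%, 63.6% and 58.1%.

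The genes whose courses over the 8 libraries were most like those of the members were found by the root mean square difference of centred log2 CPM, among 9190 genes that averaged 50 or more counts. For Nfkbia they were Ccl7 (0.35), Irf1 (0.41) and its own family member Nfkbid (0.72). For Nfkbie they were Tnfaip2 (0.39), Ripk2 (0.485) and Stx11 (0.57), and for Bcl3 Slc2a6 (0.35), Csf1 (0.35) and Icam1 (0.44). Nfkbid lay nearest to Map3k8 (0.27), Vcam1 (0.34) and Relb (0.36). Nfkbib lay nearest to Sod2 (0.27), Trp53 (0.28) and Styk1 (0.28), and Nfkbiz to Plau (0.19), Prkab2 (0.22) and Tyw5 (0.22). Within the family Nfkbib and Nfkbiz were closest (0.40) and Nfkbie and Nfkbiz farthest apart (1.98). All libraries and their scaling are shared by these courses, and the values are descriptions.

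Other genes of the pathway show where the family stands among its partners. Of the 5 NF-kB subunit genes, 1 rose late in KO: Nfkb2, which encodes the p100 precursor that also acts as an inhibitor (0.78 ± 0.18, edgeR adjusted p = 0.0477). That call is near the threshold and rests on the KO library at 0 min, which stood apart. All 5 rose in WT, with a median log2 change of 2.29, and Relb (-2.76 ± 0.27), Nfkb1 (-1.99 ± 0.25) and Nfkb2 (-1.93 ± 0.24) were lower in the difference of responses, KO minus WT. Of 10 IKK and upstream kinase genes, 0 rose in KO (2 had an unadjusted p under 0.05 in edgeR) and 2 rose in WT, Map3k14, the kinase NIK (1.44 ± 0.20), and Ikbke (0.76 ± 0.18). The difference of responses was called for Ikbke (-1.44, edgeR adjusted p = 0.0297), which had -0.68 in KO (adjusted p = 0.0766, not called). It was not called for Map3k14 (-0.95, edgeR adjusted p = 0.222), which had 0.48 in KO. The genes for the IKK complex itself, Chuk, Ikbkb and Ikbkg, were not called in the late response of either genotype. Averaged over all times, 5 of the 10 kinase genes were called lower in KO, where 9.44% of all genes were. Among them were Ikbkb (-0.33 ± 0.10, edgeR adjusted p = 0.0412) and Ikbkg (-0.32 ± 0.09, adjusted p = 0.038). None of the pathway calls, for these lists or those below, was tried under the alternatives. Of 11 genes of the TNF receptor complex, 0 rose in KO (2 had an unadjusted p under 0.05 in either direction) and 3 rose in WT, the ubiquitin ligase genes Birc3 (2.80 ± 0.23) and Birc2 (1.64 ± 0.19) and the receptor gene Tnfrsf1b (1.25 ± 0.23). The difference of responses was called for Birc3 (-3.23) and Birc2 (-1.85) and not for Tnfrsf1b (-0.70, edgeR adjusted p = 0.63), which had 0.56 in KO. Birc3 had 145, 99, 90 and 77 counts in KO and 167, 225, 1199 and 960 counts in WT.

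Other lists held genes for proteins that act on IkB proteins or on the signal upstream of them. The same shares of all tested genes apply, 1.32% higher late in KO, 4.17% higher late in WT and 0.492% lower in the difference. Of the ubiquitin ligase that marks IkBα for destruction, 6 symbols were listed. The symbol Skp1 had no row beside Skp1a, and the other 5, Btrc among them, were all tested. Over the 5 tests 0 of 25 edgeR results were called and 2 had an unadjusted p under 0.05. The median late change of these genes was -0.05 in KO and 0.06 in WT. Of 8 ubiquitin-editing regulators, 0 rose in KO (1 had an unadjusted p under 0.05 in edgeR) and 2 rose in WT, Tnfaip3, which encodes A20 (5.39 ± 0.35), and Tnip1 (1.97 ± 0.19), and the difference of responses was called for both (-5.09 and -2.18). Tnfaip3 had 42, 22, 51 and 29 counts in KO and 109, 1086, 5115 and 3368 counts in WT. In WT it went from 7.26 CPM at 0 min to 78.1 CPM at 15 min and 366.1 CPM at 45 min. Unlike that of Nfkbia, most of its rise came after 15 min. Of 6 genes known to depend on IkBζ in macrophages, only Il6 and Ccl20 had enough counts to test. Ccl20, a chemokine gene, had 0, 1, 0 and 1 counts in KO and 3, 39, 279 and 150 counts in WT and rose in WT by edgeR (adjusted p = 0.000132). Il6 had 12, 8, 11 and 2 counts in KO and 3, 9, 22 and 14 counts in WT and was not called late in either genotype (edgeR adjusted p = 0.785 in KO and 0.127 in WT).

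**Figure D5:**
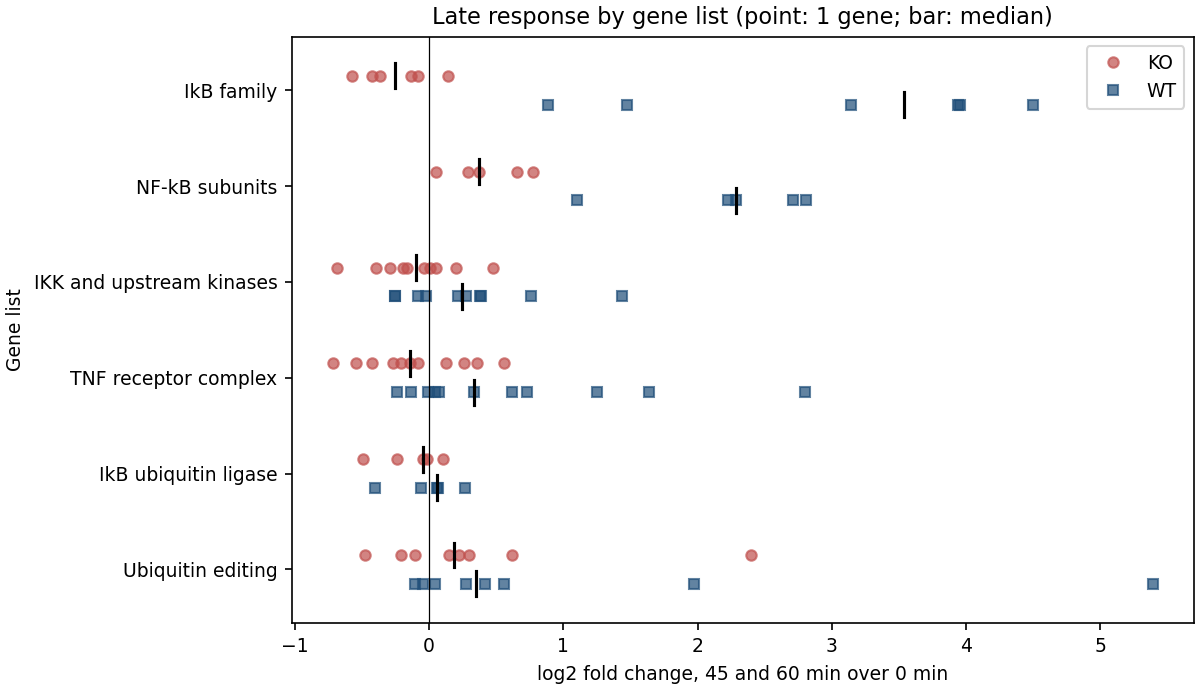
Late response (edgeR log2 fold change, 45 and 60 min over 0 min) of single genes in 6 lists of the pathway; circles are KO and, under them, squares are WT, and black bars are list medians. The IkB family has WT values of 0.88 to 4.50 with a median of 3.54 and KO values with a median of -0.25, while the ligase genes lie around 0 in both genotypes.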

How the data were processed

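The deposited values were whole-number counts per gene and library, with gene coordinates and an exon length in bases (another kind of column) beside them, per the file headers. The submitters' processing notes name mm10 as the build and, without their roles, DESeq2, featureCounts 1.5.0, STAR and cutadapt 1.12. Strand setting, annotation release and the handling of reads with several matches: not given in the sources used here. Identifiers gave a symbol to 98.77% of 45706 rows, and no value column was left unmapped to a sample (0 columns).

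A gene was kept if 2 or more libraries held 10 or more counts (15049 genes). Library sizes were scaled by TMM, with factors of 0.818 to 1.22, and counts were tested in edgeR 4.0.16 (R 4.3.3) by quasi-likelihood. P-values were adjusted after Benjamini and Hochberg across the 15049 genes, with a threshold of 0.05. The late tests used 6 means (each genotype at 0, 15 and late, where late is 45 and 60 min) and 2 residual degrees of freedom. The genotype test used a block for time (3 residual degrees). No libraries were duplicates. With no replicate cultures on record, p-values measure only the spread between these libraries. In the late tests that spread is between 45 and 60 min within a genotype. In the genotype test it is the change of the genotype difference over the times. Both can hold real change over time as well as technical spread. Ratios of single libraries carry exact Clopper-Pearson 95% intervals (scipy 1.17.1), which cover counting error only and take PCR copies as independent. CPM and TPM were computed here, TPM from the deposited exon length. The fits were tested on simulated counts, with 200 genes changed for each test. Of 2-fold changes, 48.5% were recovered in the late KO response, 40.3% in the late WT response and 14.1% in the difference. Recovery was 60.6% for the late level and 90.8% for the genotype comparison. False calls numbered 27, 20, 9, 19 and 13 in that order. Figures were drawn with matplotlib 3.10.9.

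The named genes are the 6 members, the 4 genes with the smallest p and direct partners in each pathway list, and the 3 genes nearest to each member in course (prior count 0.5). The members and the lists were chosen with earlier results of these data known. Alternatives were DESeq2 1.42.0, limma-voom (limma 3.58.1), other scalings, filters, groupings of times and baselines, robust empirical Bayes, no time block, times after TNF only, and leaving out each library. One baseline was added after seeing the data. Promoter sequences are from RefSeq.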

Additional observations from a re-analysis of the deposited data

Results flagged for a closer look

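For 5 of the 6 members the late response to TNF differed between the genotypes in the edgeR test of that difference itself, KO minus WT on the log2 scale, with an adjusted p under 0.05 over all 15049 genes. The difference was -3.79 for Nfkbia, -4.58 for Nfkbie, -3.51 for Nfkbid, -1.46 for Nfkbiz and -4.09 for Bcl3. In each of these genes the KO levels at 45 and 60 min were under the WT levels at those times, in 2 of 2 pairs of libraries. The test used these same libraries, so the pairs are no separate support, and those of Nfkbib lay the same way. The summed macrophage markers also differed between the genotypes, at 6.27 to 8.38 CPM in KO and 63.2 to 90.1 CPM in WT, and their part in these differences was not tested. A further setting took 15 min as the KO baseline and 0 min as the WT baseline. It was chosen after seeing the data, because the KO library at 0 min stood apart. There 4 members were called lower in the difference, where 0.552% of all genes were. The call of Nfkbid was lost in that setting (-3.25, edgeR adjusted p = 0.056). With 0 min as baseline in both genotypes, the difference for Nfkbib (-1.90) was not called, which does not show that its responses were alike.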

How the results depend on the processing

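The late level was lower in KO for 6 of 6 members under each alternative tried, also without each library in turn, with 1 exception. With 15, 45 and 60 min together 5 were called, without Nfkbiz, where 4.03% of all genes were lower. Over all these alternatives the share of all genes called lower ran from 3.05% to 8.88%. Over 18 alternatives no called member changed direction except Nfkbiz in WT, at -0.15 with 15 min as baseline; there Nfkbib (0.039) and Bcl3 (0.56) also changed sign in KO. A late response could not be computed without its own 0 min library. Late calls in KO were 0 without each other library, and 1 (Nfkbiz, lower) with 15 min as baseline. In WT 4 to 6 members were called when another library was left out, where 3.7% to 4.94% of all genes were called higher. In WT 2 were called with 15 min as baseline (3.24% of all genes) and 1 with 15, 45 and 60 min together (0.0133%). The difference was called for 4 to 6 members without each library from 15 min on, where 0.327% to 1.02% of all genes were called lower. It was called for 2 with no filter (0.0547% of all genes) and 2 with 0 and 15 min together as baseline (1.19%). It was called for 1 with 15 min as baseline (0.126%). With 15, 45 and 60 min together it was called for 0 members (edgeR, 6 at an unadjusted p under 0.05), and for 0 of all 15049 genes. The genotype comparison gave 3 with DESeq2 (6.39% of all genes lower) and 0 with robust empirical Bayes (4 at an unadjusted p under 0.05, 9.07% of all genes lower). It gave 2 to 6 with a library left out. The cause was not tested. Uncalled KO responses that turned were Nfkbia with total counts (-0.077) and Bcl3 with 0 and 15 min together (0.13). With a library left out the KO response of Nfkbia ran from -0.070 (without KO at 45 min) to 0.34 and that of Bcl3 from -0.61 to 0.22 (without KO at 45 min). With total counts the ratios of Nfkbia at 45 over 0 min (-0.056), Nfkbiz at 15 over 0 min (-0.0063) and Nfkbiz at 60 over 45 min (0.16) in KO turned too. That scaling put the median late change of all genes at -0.21 in both genotypes, and gave 57 genes higher and 155 lower late in KO (198 and 78 with TMM) and 304 higher and 280 lower in WT (628 and 197 with TMM). No paired analysis was possible because the labels give no replicate numbers, beyond the block for time already in the genotype comparison. KO counts of Nfkbie and Nfkbid, 16 to 30, limit their precision.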
